A study of Homo sapiens with 29 samples.

Results

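The myosin light chain genes MYL1, MYL2, MYL3, MYL4, MYL6, MYL6B, MYL7 and MYLPF (current symbol MYL11) were followed in LHCN-M2 cells, a human skeletal myoblast line immortalized with telomerase and CDK4. The genes were taken by name, through the RefSeq accession that the array gives each probe, and the 8 genes were 8 of 22439 named on the array and 8 of 18432 with a tested probe. Each was read by 1 probe. Cells received 20 nM of a nontargeting siRNA (siControl) or of siRNA against ZNF148, a zinc finger transcription factor (siZNF148). They were harvested at 24 h in growth media, or at 48 h or 96 h in growth media or in differentiation (DIFF) media. By the paper, the growth media cultures were subconfluent at 24 h and confluent at 48 h and 96 h. Confluence in DIFF media is not stated. Total RNA of 29 cultures was hybridized to 1-colour arrays, 3 per group except for 2 in siControl at 96 h in growth media. All cells were of 1 line, so the 10 groups are repeat cultures of that line and not different donors, and confluence cannot be told apart from time between 24 h and 48 h.

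Myosin is a hexamer of a pair of heavy chains, each of which carries 1 alkali (essential) and 1 regulatory light chain on the lever arm next to the motor head. The light chains stiffen the lever arm, and phosphorylation of the regulatory chain by myosin light chain kinase tunes contraction. MYL1 (fast skeletal), MYL3 (slow skeletal and ventricular), MYL4 (embryonic and atrial), MYL6 (nonmuscle and smooth muscle) and MYL6B encode alkali chains. MYL2 (slow skeletal and ventricular), MYL7 (atrial) and MYLPF (fast skeletal) encode regulatory chains. Because the RNA is from whole cultures, a change in the share of cells that express a gene and a change in its RNA per cell cannot be told apart.

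Windows of 250 bases before the annotated gene starts were matched for 6 of the 8 genes (RefSeq, GRCh38.p14), and those of 4 genes are shown because 3 of them rose after ZNF148 knockdown and the neighbour of MYL6B, MYL6, did not. Capitals mark E-boxes (CANNTG, the core bound by MYOD and other bHLH factors), TATAAA boxes and MEF2 sites, each searched on both strands. MYL6B and MYL6 lie on the same strand of chromosome 12 with starts 5772 bases apart, MYL1 has 2 annotated starts 11559 bases apart, and MYLPF has 2 starts 1360 bases apart.
MYL1, upstream start, minus strand, chr2:210315175-210315424: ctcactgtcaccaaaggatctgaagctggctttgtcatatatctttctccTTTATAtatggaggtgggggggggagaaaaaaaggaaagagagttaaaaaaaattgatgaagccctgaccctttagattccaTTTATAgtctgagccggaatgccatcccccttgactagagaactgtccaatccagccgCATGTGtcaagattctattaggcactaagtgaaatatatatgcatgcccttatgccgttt
MYL1, downstream start, minus strand, chr2:210303616-210303865: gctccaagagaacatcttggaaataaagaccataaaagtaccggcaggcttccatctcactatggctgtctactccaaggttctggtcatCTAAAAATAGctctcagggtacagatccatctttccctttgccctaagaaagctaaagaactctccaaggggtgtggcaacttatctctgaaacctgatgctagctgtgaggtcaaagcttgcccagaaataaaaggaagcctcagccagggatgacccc
MYLPF, downstream start, plus strand, chr16:30372044-30372293: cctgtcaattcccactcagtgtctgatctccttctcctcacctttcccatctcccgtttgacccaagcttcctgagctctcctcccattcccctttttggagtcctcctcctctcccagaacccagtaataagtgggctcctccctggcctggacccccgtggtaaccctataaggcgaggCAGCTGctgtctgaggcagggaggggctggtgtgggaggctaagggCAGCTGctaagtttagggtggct
MYL6B, plus strand, chr12:56152337-56152586: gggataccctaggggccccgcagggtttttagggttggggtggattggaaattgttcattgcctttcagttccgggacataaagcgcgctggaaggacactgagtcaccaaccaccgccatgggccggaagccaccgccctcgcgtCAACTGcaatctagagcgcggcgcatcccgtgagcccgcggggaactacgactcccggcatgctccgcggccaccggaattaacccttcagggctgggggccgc
MYL6, plus strand, chr12:56158109-56158358: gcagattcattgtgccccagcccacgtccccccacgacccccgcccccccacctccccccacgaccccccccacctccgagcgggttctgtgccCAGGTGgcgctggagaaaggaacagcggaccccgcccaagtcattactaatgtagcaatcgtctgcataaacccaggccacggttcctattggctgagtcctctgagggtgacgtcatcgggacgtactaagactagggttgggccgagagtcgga
The upstream MYL1 window held 1 E-box, 60 bases before the start, and 2 TATAAA boxes, and the downstream MYL1 window held the MEF2 site. The downstream MYLPF window held 2 E-boxes, 69 and 23 bases before the start, and the upstream one (not shown) held 1. MYL6B held 1 E-box at 104 bases and MYL6 held 1 at 156 bases, so this match was shared by the gene that rose and the gene that did not. MYL7 (not shown) held 1 E-box and 1 CArG box, and neither MYL3 window held an E-box. Over all 35116 windows of this length, 61.8% held an E-box, 2.8% a MEF2 site and 1.16% a CArG box, and 3763 held a TATAAA box; the matches are letters in a window and not mapped binding sites.

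Levels are given as the authors' quantile-normalized log2 signal, on a scale from 1.9 to 18.9 over all probes and arrays, and a value is called well above background as the scanner software flagged it. Between 41.6% and 56.5% of probes were well above background on an array, and no light chain probe was saturated on any array. ZNF148 was lower in all knockdown groups, without overlap: its log2 change was -1.53 at 24 h, -2.08 (48 h) and -2.30 (96 h) in growth media, and -2.34 and -2.74 in DIFF media. All 6 myoblast markers (MYOD1, MYF5, DES, CDH15, NCAM1 and VCAM1) were well above background on every array, except VCAM1 on 1 siControl array at 24 h. One control array stood apart. In siControl at 48 h in growth media, replicate 1 lay more than 2-fold outside both other replicates for 6.73% of genes, against 0.906% to 4.1% for the other arrays of groups of 3, while its ZNF148 level (8.52) lay with the other control arrays (8.85 and 9.18) and above the knockdown arrays of that time (6.53 to 6.90). Its summed level of 6 markers of differentiated skeletal muscle was the highest of its group, which spanned 11.20 to 18.76 (log2 of the sum), and the light chain calls that use it are given with and without it.

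**Figure D1:**
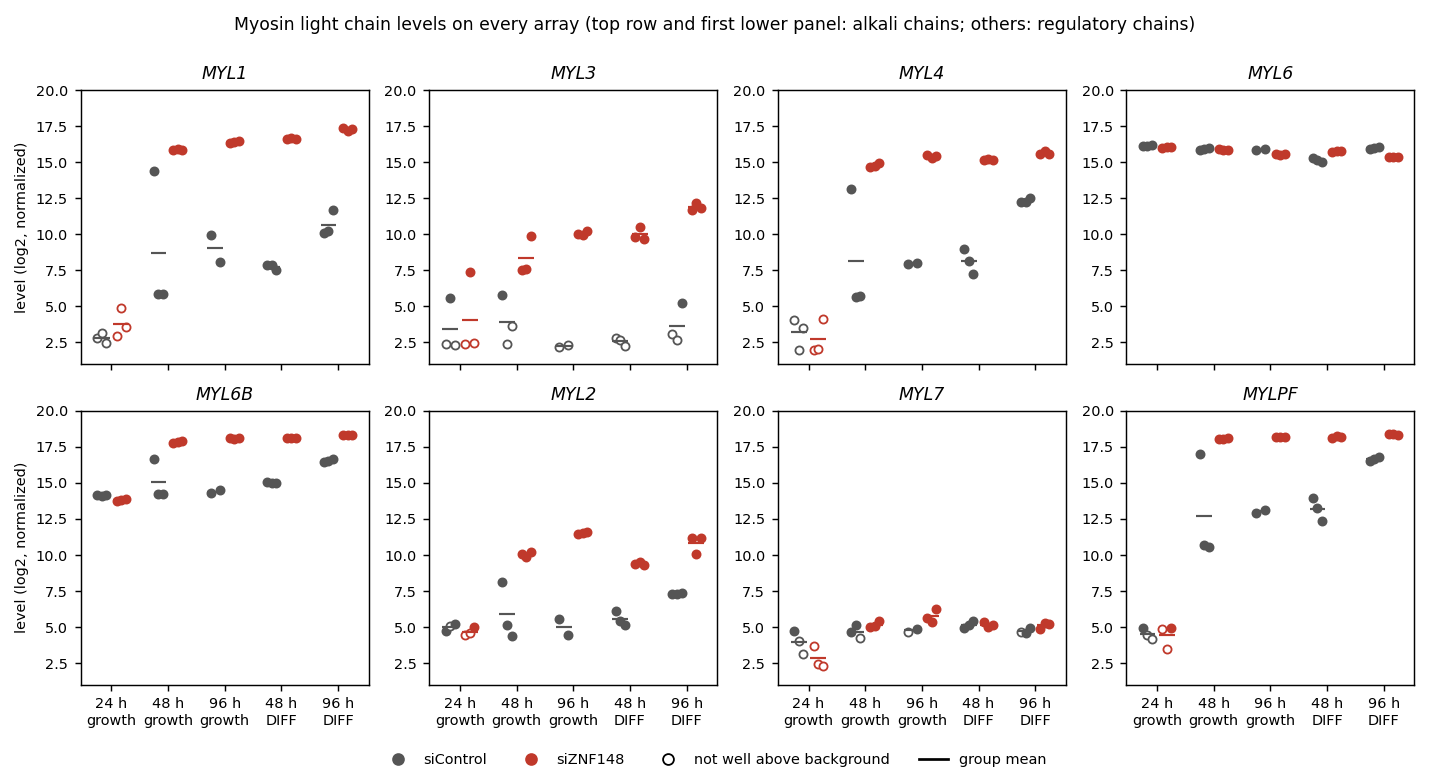
Level (log2, normalized) of each light chain on each of the 29 arrays by time and media, with siControl in grey, siZNF148 in red, open circles for values not well above background and a bar for each group mean. From 48 h the siZNF148 arrays of MYL1, MYL2, MYL3, MYL4, MYL6B and MYLPF sit above the siControl arrays, MYL6 stays between 15.00 and 16.16 and MYL7 at or below 6.28, and siControl replicate 1 at 48 h in growth media is the high grey point.

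No light chain passed as higher with knockdown at 24 h, where MYL1 and MYL4 were above background on no array, and 6 of the 8 rose at 48 h and 96 h. In growth media MYL1, MYL2, MYL3, MYL4, MYL6B and MYLPF rose at 48 h and at 96 h, and in DIFF media at 48 h, each by more than 2-fold with an adjusted p under 0.05 (limma, adjusted over all probes tested). At 96 h in DIFF media 5 of them rose and MYLPF did not pass. MYL6 passed in none of the 5 comparisons, and MYL7 passed once, as a fall at 24 h. Over all genes, 11.7% rose and 12.2% fell at 48 h in growth media, 12.3% and 12.4% at 96 h in growth media, 15% and 17.2% at 48 h in DIFF media, and 10.4% and 12.8% at 96 h in DIFF media. At 24 h 2.44% rose and 3.03% fell. The median change of the 8 genes was -0.22 at 24 h, 4.28 and 5.84 at 48 h and 96 h in growth media, and 4.43 and 2.55 at 48 h and 96 h in DIFF media (log2), beside medians between -0.06 and 0 over all genes. Without the control array that stood apart the 48 h growth media median was 5.30. When only the 6 arrays of the 48 h growth media comparison were fitted, the one that stood apart included, MYL2, MYL3 and MYL6B passed and MYL1, MYL4 and MYLPF did not. Within single slides that held both treatments the called changes ran from 1.05 to 10.02 and from 3.63 to 7.68 at 48 h and 96 h in growth media. In DIFF media they ran from 3.1 to 9.11 and from 1.64 to 8.94. The arrays of these called genes did not overlap between treatments, so the direction within a slide was fixed and is no check of slide effects. Over all genes, every siZNF148 array lay above every siControl array for 29.3% at 48 h and 35.7% at 96 h in growth media. In DIFF media these shares were 32.8% and 28.3%. The shares wholly below were 33.4% and 39.1% in growth media and 37.2% and 37% in DIFF media. At 96 h in growth media only slide 3 held both treatments, with 1 siZNF148 and 2 siControl arrays. Markers of differentiated skeletal muscle moved with these rises. All 6 of them (MYOG, CKM, ACTA1, MYH3, MYH8 and TNNT3) rose at 48 h and 96 h in growth media and at 48 h in DIFF media, led by CKM (up to 8.06 with all arrays). At 96 h in DIFF media 2 did so (4 without the control array that stood apart), led by TNNT3 (3.56 with all arrays), and none did at 24 h. The part of these markers in the light chain results was not tested.

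MYL1, the fast skeletal alkali chain, was not well above background on any array at 24 h, at 2.80, 3.14 and 2.42 in siControl and 2.96, 4.85 and 3.57 in siZNF148. By 48 h in growth media it measured 14.38, 5.88 and 5.83 in siControl and 15.85, 15.89 and 15.86 in siZNF148. The groups did not overlap, but replicate 1 of siControl lay much closer to the knockdown arrays than to its own group. The change was 7.17 ± 1.33 (log2, SE; 144-fold, adjusted p = 0.000108) with that array and 10.01 ± 0.487 without it (adjusted p = 4.34e-13). After 96 h in growth media siControl read 9.94 and 8.08 and siZNF148 16.34, 16.42 and 16.45, a change of 7.39 ± 1.49 (168-fold, adjusted p = 0.000285). Every control array of MYL1 in growth media lay below every knockdown array from 48 h on. In DIFF media the siControl arrays read 7.85, 7.84 and 7.53 at 48 h, then 10.07, 10.22 and 11.65 at 96 h. The siZNF148 arrays read 16.64, 16.65 and 16.59 at 48 h, then 17.36, 17.14 and 17.29 at 96 h. The earlier change was 8.89 ± 1.33 (474-fold, adjusted p = 5.81e-06) and the later one 6.62 ± 1.33 (98.1-fold, adjusted p = 0.000261). The mean of siControl was 7.74 at 48 h and 10.65 at 96 h, and that of siZNF148 was 16.63 and 17.26.

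MYL4, the embryonic and atrial alkali chain, was likewise below the background call on all 24 h arrays, at 4.05, 1.99 and 3.52 in siControl and 1.99, 2.01 and 4.13 in siZNF148. At 48 h in growth media siControl read 13.14, 5.65 and 5.70 and siZNF148 14.68, 14.73 and 14.95. The first control array was again the high one, and the groups did not overlap. The change was 6.62 ± 1.2 with it (98.5-fold, adjusted p = 8.57e-05) and 9.11 ± 0.549 without it (adjusted p = 1.36e-11). After 96 h in growth media MYL4 read 7.95 and 8.02 in siControl and 15.49, 15.29 and 15.43 in siZNF148 (7.42 ± 1.35, 171-fold, adjusted p = 9.37e-05). In DIFF media MYL4 also rose in control cultures. There siControl went from 8.97, 8.16 and 7.26 at 48 h to 12.24, 12.24 and 12.54 at 96 h. Knockdown cultures read 15.14, 15.21 and 15.12 at 48 h, then 15.60, 15.76 and 15.58 at 96 h. The earlier siZNF148 effect was 7.03 ± 1.2 (130-fold, adjusted p = 3.23e-05) and the later one 3.31 ± 1.2 (9.92-fold, adjusted p = 0.0275). The latter was the least secure of the MYL4 calls: with any 1 of its own 6 arrays left out the adjusted p lay between 0.0511 and 0.0632, and without the control array that stood apart, which enters it only through the shared spread, it was 8.52e-06.

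MYL3, the slow skeletal and ventricular alkali chain, was well above background on 16 of 29 arrays, the fewest of the 8 genes. At 24 h replicate 2 of each group was high, at 5.60 in siControl and 7.35 in siZNF148, and the other 4 arrays lay between 2.32 and 2.47. At 48 h in growth media siControl read 5.78, 2.37 and 3.66 and siZNF148 7.51, 7.59 and 9.86 (4.38 ± 1.11, 20.8-fold, adjusted p = 0.00225). Without siControl replicate 1, the only control array of that group well above background, the change was 5.30 ± 1.18 (adjusted p = 0.000769). At 96 h in growth media the controls (2.18 and 2.29) were not well above background and knockdown read 9.99, 9.92 and 10.19, which made MYL3 at least 60.7-fold higher (adjusted p = 1.92e-05). The bound sets the knockdown mean against the lowest signal called well above background on the control arrays, and it stands here for the fold where no control array was above background. At 48 h in DIFF media, with controls at 2.80, 2.65 and 2.26 and knockdown at 9.84, 10.47 and 9.69, MYL3 was at least 65.9-fold higher (adjusted p = 5.32e-06). The highest MYL3 levels were those of siZNF148 at 96 h in DIFF media, at 11.68, 12.15 and 11.81 against 3.09, 2.65 and 5.23 in siControl, of which 1 array was well above background (8.22 ± 1.11, adjusted p = 2.05e-06). Of the siControl arrays, only those at 5.60, 5.78 and 5.23 were well above background for MYL3.

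MYL6B was well above background on all 29 arrays, and the spread of its groups was small apart from the control array named above. At 24 h siControl read 14.17, 14.13 and 14.17 and siZNF148 13.76, 13.84 and 13.91, a difference of -0.32 ± 0.363 (adjusted p = 0.636), and of -0.32 ± 0.0588 (adjusted p = 0.000294) with the other 28 arrays in the fit, still under 2-fold. By 48 h in growth media it was 16.67, 14.26 and 14.25 in siControl and 17.78, 17.83 and 17.88 in siZNF148. The rise was 2.77 ± 0.363 (6.81-fold, adjusted p = 1.48e-06), or 3.57 ± 0.0657 without replicate 1. After 96 h in growth media it was 3.68 ± 0.406 (12.8-fold, adjusted p = 1.59e-07), from 14.31 and 14.48 to 18.10, 18.03 and 18.09. In DIFF media siControl read 15.05, 14.99 and 14.98 at 48 h, then 16.45, 16.52 and 16.67 at 96 h. The siZNF148 arrays read 18.14, 18.15 and 18.11 at 48 h, then 18.35, 18.31 and 18.36 at 96 h. The rises were thus 3.13 ± 0.363 (8.75-fold, adjusted p = 1.62e-07) and 1.79 ± 0.363 (3.46-fold, adjusted p = 0.000282). From 48 h on, MYL6B in knockdown cells lay close to the top of the scale.

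MYL6, whose gene start follows that of MYL6B on chromosome 12, had the narrowest range of the 8 genes, with all 29 arrays between 15.00 and 16.16. It moved by less than 2-fold in every comparison, although its narrow spread gave several small differences a low p. With siZNF148 it was 0.59 ± 0.0621 higher at 48 h in DIFF media (1.51-fold, adjusted p = 3.41e-08) and 0.64 lower at 96 h in DIFF media (log2 change -0.64 ± 0.0621, adjusted p = 1.78e-08). Between these times the siControl arrays moved up and the siZNF148 arrays down. The controls read 15.31, 15.15 and 15.00 at 48 h, then 15.93, 15.97 and 16.06 at 96 h in DIFF media. Knockdown cells read 15.72, 15.76 and 15.75 and then 15.37, 15.33 and 15.33. In growth media the 24 h change was -0.11 ± 0.0621 (adjusted p = 0.257) and the 48 h change -0.06 ± 0.0621 (adjusted p = 0.485), while MYL6 after 96 h differed by -0.35 ± 0.0694 (adjusted p = 0.000263). MYL6, like MYL6B, was well above background on every array.

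MYL2, the slow skeletal and ventricular regulatory chain, was faint at 24 h, at 4.75, 5.04 and 5.23 in siControl and 4.48, 4.59 and 4.98 in siZNF148. By 48 h in growth media siControl read 8.13, 5.11 and 4.39 and siZNF148 10.08, 9.85 and 10.21, a rise of 4.17 ± 0.579 (18-fold, adjusted p = 3.18e-06) and of 5.30 ± 0.334 without replicate 1. The groups did not overlap in either case. After 96 h in growth media siControl read 5.58 and 4.47 and siZNF148 11.46, 11.55 and 11.62 (6.52 ± 0.647, 91.7-fold, adjusted p = 3.52e-08). In DIFF media siControl read 6.12, 5.41 and 5.15 at 48 h, then 7.30, 7.31 and 7.34 at 96 h. The siZNF148 arrays read 9.40, 9.51 and 9.30 at 48 h, then 11.19, 10.07 and 11.15 at 96 h. The changes were 3.84 ± 0.579 (14.3-fold, adjusted p = 6.3e-06) and 3.49 ± 0.579 (11.2-fold, adjusted p = 3.02e-05). All siZNF148 arrays of MYL2 from 48 h on lay above every siControl array.

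MYLPF, the fast skeletal regulatory chain, read 4.91, 4.47 and 4.16 in siControl and 4.86, 3.51 and 4.96 in siZNF148 at 24 h, with 1 array of each group well above background. At 48 h in growth media siControl read 16.99, 10.67 and 10.53 and siZNF148 18.07, 18.04 and 18.15. The rise was 5.36 ± 0.997 (41-fold, adjusted p = 0.000111), and 7.49 ± 0.362 without replicate 1, which lay far above the other control arrays. At 96 h in growth media siControl read 12.94 and 13.12 and siZNF148 18.21, 18.16 and 18.22 (5.17 ± 1.11, 35.9-fold, adjusted p = 0.000579). In DIFF media siControl rose from 13.97, 13.23 and 12.34 at 48 h to 16.51, 16.63 and 16.82 at 96 h. Knockdown cells stayed at 18.15, 18.25 and 18.19 and then 18.39, 18.38 and 18.33, near the top of the scale. The earlier effect was 5.02 ± 0.997 (32.4-fold, adjusted p = 0.000178) and the later one 1.71 ± 0.997 (3.27-fold, adjusted p = 0.174). The 96 h groups did not overlap. In that comparison every siZNF148 array lay above every siControl array for 28.3% of all genes and below for 37%. With the other 28 arrays in the fit the same MYLPF change had an SE of 0.324 and an adjusted p of 0.000151. In that fit 10.6% of all genes were higher.

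MYL7, the atrial regulatory chain, stayed dim throughout, with a highest value of 6.28 and 21 of 29 arrays well above background. At 24 h siControl read 4.74, 4.03 and 3.14 and siZNF148 3.71, 2.44 and 2.31, and 1 of these 6 arrays was well above background. The groups overlapped and the levels were at background, so no fold is given. The fitted difference of -1.15 ± 0.355 (adjusted p = 0.0209) passed the threshold only while particular arrays stayed in: it ended without siControl replicate 1 or 2 or without siZNF148 replicate 2 or 3. At 96 h in growth media siControl read 4.69 and 4.85 and siZNF148 5.61, 5.38 and 6.28, a difference just under 2-fold (0.99 ± 0.397, adjusted p = 0.0494). In the other comparisons it lay between 0.01 and 0.49 (log2).

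**Figure D2:**
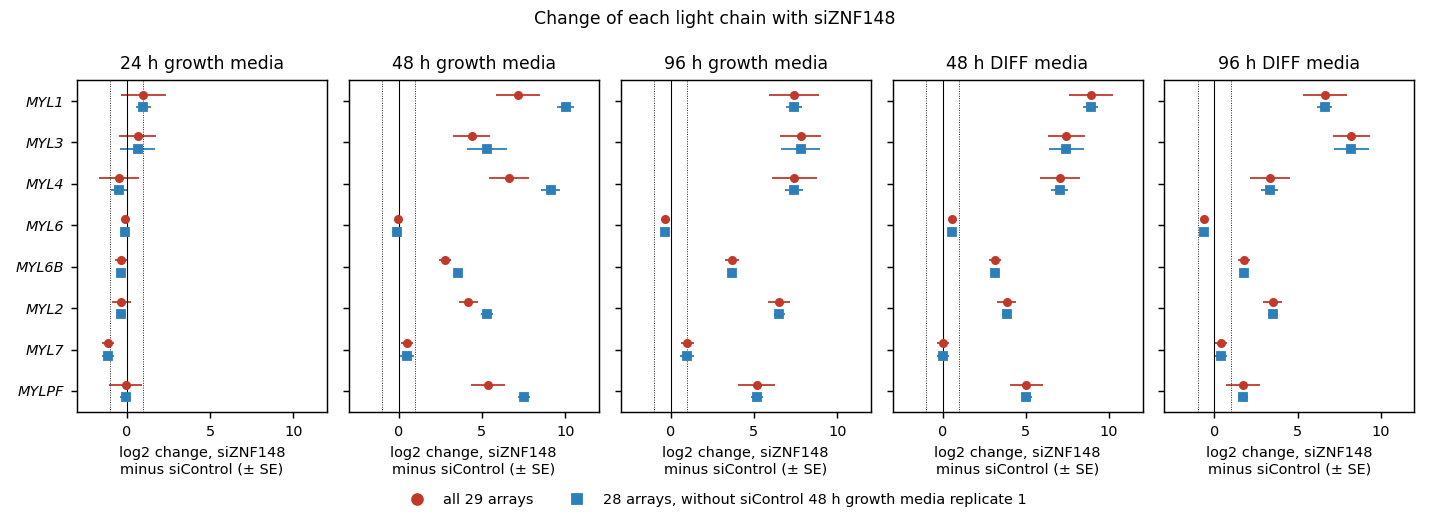
Change of each light chain with siZNF148 (log2, x axis; bars are ± SE of the limma fit) at each time and media, from all 29 arrays (red circles) and from the 28 left without siControl replicate 1 at 48 h in growth media (blue squares); dotted lines mark 2-fold. The MYL1 change at 48 h in growth media moves from 7.17 to 10.01 between the 2 fits, the changes in the other panels keep their place, with smaller errors for MYL1, MYL2, MYL4, MYL6B and MYLPF, and MYL6 stays within 2-fold in all.

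The onset of the effect between 24 h and 48 h was tested as a difference of differences. The siZNF148 effect in growth media was larger at 48 h than at 24 h for 6 members, with fitted differences of 3.09 to 7.10 on the log2 scale for MYL1, MYL2, MYL4, MYL6B and MYLPF and of 1.64 for MYL7. Without the control array that stood apart the fitted differences were 9.01 for MYL1, 5.62 for MYL2, 9.59 for MYL4, 3.89 for MYL6B, 7.56 for MYLPF and 1.63 for MYL7. MYL3 did not pass (3.73 ± 1.56, adjusted p = 0.0722), and did so without the control array that stood apart (4.66 ± 1.58, adjusted p = 0.0247). Over all genes 10.2% passed in this direction. MYL7 did not itself pass as higher at 48 h (0.49), and its fitted 24 h change was -1.15. Between 96 h and 24 h the effect was larger for 7 members, all but MYL6, with fitted differences from 2.14 for MYL7 to 7.90 for MYL4, beside 11.6% of all genes. At 24 h MYL1 and MYL4 were above background on none of 6 arrays, MYL7 on 1, and MYL3 and MYLPF on 2. MYL2 was above it on 2 of 3 siControl and 1 of 3 siZNF148 arrays. MYL3 was also below it in siControl at 96 h in growth media. The sizes of these differences therefore depend on values at or near background and are not measured folds. The 24 h arrays were all on 1 slide and in a scan of their own, so slide, confluence and time cannot be told apart in these differences, although each knockdown effect was measured within its own time.

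In control cells at 96 h 4 of the 8 light chains were higher in DIFF than in growth media, and none passed in knockdown cells. By the paper's methods, cells in differentiation experiments were moved to differentiation media 2 days after transfection. Hours in growth and DIFF media may thus count from different starts. Media and time since transfection therefore cannot be told apart in any comparison between media. At 96 h, siControl cultures in DIFF media had higher MYL2 (2.29 ± 0.647, adjusted p = 0.00808), MYL4 (4.35 ± 1.35, adjusted p = 0.015), MYL6B (2.15 ± 0.406, adjusted p = 0.000224) and MYLPF (3.62 ± 1.11, adjusted p = 0.0145) than in growth media, beside 6.79% of genes that were higher. With the other 28 arrays in the fit MYL1 passed too (1.63 ± 0.487, adjusted p = 0.0115, against 0.465 with all). That comparison rests on 2 growth media arrays of 1 slide with no DIFF array of siControl at 96 h on it, so it has no value within a slide, and leaving out replicate 1 of them left MYL2 and MYL6B while leaving out replicate 2 left MYL6B. At 48 h none of the 8 passed in siControl, beside 15.9% of genes in either direction, where 1 member (MYL6, -0.78 ± 0.0621) had an unadjusted p under 0.05 by limma. Without replicate 1 of the growth media group, 3 rose: MYL1 by 1.89 ± 0.487 (adjusted p = 0.00362), MYL4 by 2.45 ± 0.549 (adjusted p = 0.00105) and MYLPF by 2.58 ± 0.362 (adjusted p = 6.07e-06). In that fit 9.04% of all genes were higher. With that array the changes of MYL1 and MYL4 were -0.95 and -0.03, so both turned sign.

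In siZNF148 cells none of the 8 passed between DIFF and growth media at 48 h (3.96% of genes did, in either direction) or at 96 h (6.4%). At an unadjusted p under 0.05, limma gave 0 of 8 at 48 h and 1, MYL6, at 96 h, and the t test of the methods gave 0 and 1 (MYL3) past 2-fold. MYL3 had the largest differences, an earlier one of 1.68 ± 1.11 (adjusted p = 0.404) and a later one of 1.85 ± 1.11 (adjusted p = 0.274). All 3 of its 96 h DIFF arrays lay above the 3 growth media arrays. The same held for 5 of the 8 members, MYL3 included, and for 20.4% of all genes. The other 3 members and 28.3% of all genes lay wholly below. MYL2 ran the other way from MYL3, at -0.64 ± 0.579 and -0.74 ± 0.579.

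Whether the effect of siZNF148 itself differed between media was tested next. Each effect was taken within its own media, but the media may also differ here in time since transfection. At 96 h it was smaller in DIFF than in growth media for MYL2 (-3.03 ± 0.868, adjusted p = 0.0133) and MYL6B (-1.89 ± 0.544, adjusted p = 0.014), beside 6.93% of genes. MYL4 (-4.11 ± 1.81, adjusted p = 0.111) and MYLPF (-3.46 ± 1.5, adjusted p = 0.105) did not pass, and passed with the other 28 arrays in the fit (adjusted p = 0.000224 and 1.47e-05). For these 4 genes the mean of siControl was higher in DIFF media at 96 h, while the mean of siZNF148 moved by 0.74 or less. In siZNF148 cells MYL6B (18.07 in growth and 18.34 in DIFF media) and MYLPF (18.20 and 18.36) lay near the top of the scale, 18.9. Whether this limited their change was not tested. At 48 h no member passed (17.1% of genes did in either direction), and 1 of 8, MYL6, had an unadjusted p under 0.05. Without siControl replicate 1 the effect was smaller in DIFF media for MYL2 (-1.45 ± 0.448), MYL4 (-2.09 ± 0.737) and MYLPF (-2.47 ± 0.486), beside 10.2% of genes in that direction. In that fit the sign turned for MYL4 (from 0.40), MYL1 (1.72 to -1.12, adjusted p = 0.223) and MYL6B (0.36 to -0.45, adjusted p = 0.000418, under 2-fold).

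From 48 h to 96 h, control cells in DIFF media gained MYL2 (1.76 ± 0.579, adjusted p = 0.0231), MYL4 (4.21 ± 1.2, adjusted p = 0.00944), MYL6B (1.54 ± 0.363, adjusted p = 0.00204) and MYLPF (3.48 ± 0.997, adjusted p = 0.00959), beside 5.75% of genes that were higher. MYL1 (2.91 ± 1.33, adjusted p = 0.108) did not pass with all arrays and did without the control array that stood apart (adjusted p = 1.84e-05). In growth media none of the 8 passed in siControl, with 0 of 8 at an unadjusted p under 0.05, beside 0.445% of genes. Without replicate 1 at 48 h, MYL1 (3.16 ± 0.534), MYL4 (2.31 ± 0.602) and MYLPF (2.43 ± 0.397) were higher at 96 h, and for MYL4 the sign turned from -0.18. In that fit 1.6% of all genes were higher.

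In knockdown cells no member passed between 48 h and 96 h in growth media (5.94% of genes did) or in DIFF media (8.04%), with 2 of 8, MYL2 and MYL6, at an unadjusted p under 0.05 in each. MYL2 gained 1.5 ± 0.579 in growth media (adjusted p = 0.0735) and 1.40 ± 0.579 in DIFF media (adjusted p = 0.0793), with no overlap of the arrays in either. Over all genes, every 96 h array lay above every 48 h array for 24.9% in growth and 23.1% in DIFF media. The shares wholly below were 24.1% and 28.7%. With the other 28 arrays in the fit both MYL2 changes passed (adjusted p = 0.000709 and 0.000987), beside 4.31% and 4.52% of all genes that were higher. MYLPF, by contrast, differed by 0.11 and 0.17 between these times, with an SE of 0.997, at levels near the top of the scale.

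**Figure D3:**
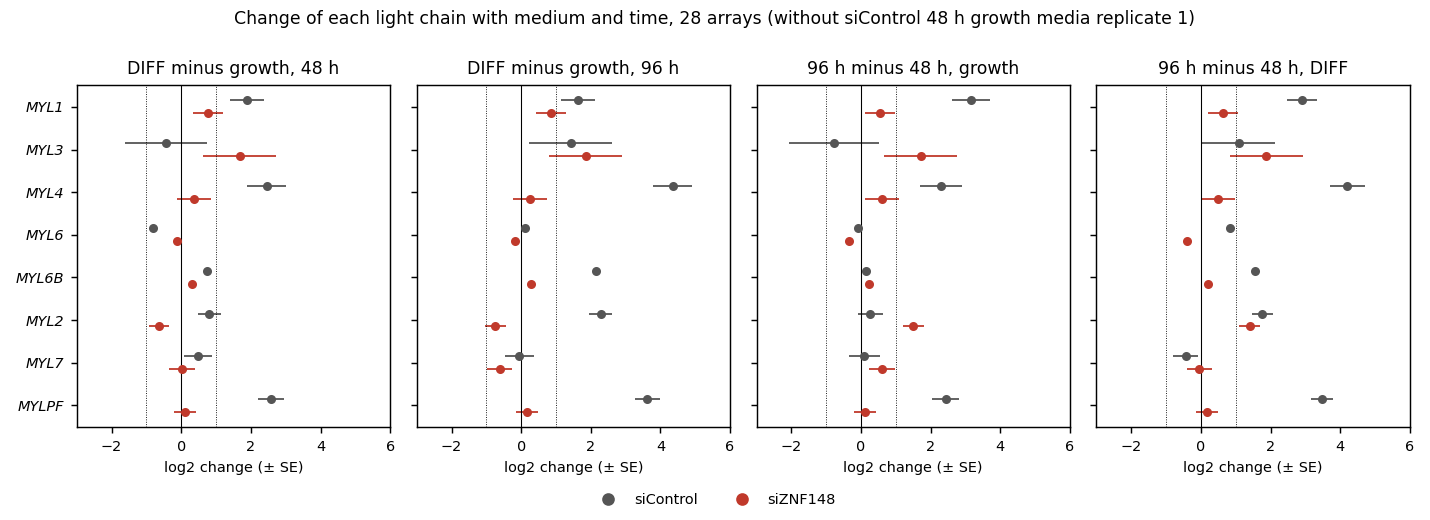
Change of each light chain from growth to DIFF media and from 48 h to 96 h (log2, x axis; bars are ± SE of the limma fit on the 28 arrays without siControl replicate 1 at 48 h in growth media), with siControl in grey and siZNF148 in red; dotted lines mark 2-fold. The grey points of MYL1, MYL4 and MYLPF lie right of 2-fold in all 4 panels, and of the red points those of MYL3 and, between times, MYL2 lie furthest right.

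Across the 10 groups, the mean levels of several members ran together. MYL1, MYL2, MYL4 and MYL6B followed each other (Pearson r of the group means 0.925 to 0.983), as did MYLPF with MYL1 and MYL4 (0.94 and 0.971). MYL6 ran apart from all 7 others (-0.608 to -0.373). These are descriptions over the means of 10 groups, with no test. Among 16217 genes well above background on every array of at least 1 group, the patterns most like MYL1 were those of RBFOX1 (r = 0.996), CSRP3 and HRC. For MYL4 they were TNNT3 (r = 0.997), MYH3 and TNNC2, and for MYLPF they were ACTA1 (r = 0.998), MYBPH and TNNC1. For MYL6B they were LINC00887 (r = 0.996), ENTREP1 and LMOD2, for MYL2 ARMS2 (r = 0.994), VHRT and ANGPTL7, and for MYL3 KPNA5 (r = 0.996), MYBPC1 and EGF. The best matches of the remaining genes were lower, LARP1 (r = 0.963), LCMT2 and HSP90AA1 for MYL6 and MACROD2 (r = 0.9615), CCDC141 and GPR183 for MYL7.

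The heavy chains that carry these light chains changed at the same times. Of 9 sarcomeric myosin heavy chain genes, none passed at 24 h, 7 rose at 48 h and 96 h in growth media and at 48 h in DIFF media, and 6 rose at 96 h in DIFF media. MYH7, the slow heavy chain that pairs with MYL2 and MYL3, rose by 6.83 at 48 h (9.47 without the control array that stood apart) and by 8.34 at 96 h in growth media. MYH7B led at 48 h in DIFF media (7.87) and MYH6, the atrial heavy chain, at 96 h in DIFF media (6.49). The heavy chain genes MYH4 and MYH13 passed in none of the 5 comparisons. At 24 h the median change of this list was 0.05 on the log2 scale, and it was 4.64, 5.44, 4.57 and 2.95 in the later comparisons in the order just given, with 6.01 in place of 4.64 without that array. Among 4 nonmuscle and smooth muscle heavy chains, MYH11 (smooth muscle) rose from 48 h on, by 4.25 (5.76 without that array) to 7.75, and MYH10 (nonmuscle) fell, with log2 changes from -1.05 at 96 h in DIFF media to -2.09 at 96 h in growth media.

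Of 5 other light chain genes, MYL10 rose in all 5 comparisons and was the only light chain of either set to rise at 24 h. The MYL10 changes were 2.38 ± 0.515 at 24 h (5.19-fold, adjusted p = 0.00146), 3.95 (5.07 without the array that stood apart) and then 2.93 in growth media, and 4.08 and then 1.83 in DIFF media. MYL5 rose in growth media only by this threshold, by 2.63 at 48 h (3.23 without that array) and 2.90 at 96 h, against 0.17 and 0.25 in DIFF media. In siControl cells MYL5 was itself higher in DIFF than in growth media, by 1.87 at 48 h and 3.14 at 96 h with all arrays. Whether the siZNF148 effect on MYL5 differed between media was not tested. MYL12B, a nonmuscle regulatory chain, passed in none of the 5. Of the 5 genes, 2 rose at 48 h and 3 at 96 h in growth media, and 2 rose at each time in DIFF media. At 96 h in growth media and at both times in DIFF media these counts include a further gene of the list besides MYL10 and MYL5.

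Among 10 kinase and phosphatase genes that act on the regulatory chains, MYLK, the smooth muscle and nonmuscle light chain kinase, fell in all 5 comparisons, with a log2 change of -1.22 at 24 h and of -2.60 to -4.01 later. MYLK3, the cardiac kinase, and MYLK4 rose in all 4 comparisons from 48 h on, MYLK3 by up to 7.20 at 96 h in growth media and MYLK4 by up to 3.86. MYLK2, the skeletal muscle kinase, rose in DIFF media at 48 h (2.90) and 96 h (1.28) and measured 0.36 and -0.03 in growth media. Of the phosphatase subunits, the muscle-enriched PPP1R12B rose by 2.38 (2.93 without the array that stood apart) and 2.45 in growth media and 1.95 at 48 h in DIFF media, and PPP1R12A and PPP1R12C passed in none.

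Of 11 myosin binding proteins and assembly factors, 8 rose at 48 h and 96 h in growth media and at 48 h in DIFF media, 5 rose at 96 h in DIFF media and none passed at 24 h. MYBPC1, the slow myosin binding protein C, led 3 of these, with rises of 9.92, 8.91 and 9.33, and MYOM1, an M-band protein, led at 48 h in growth media (6.70, and 9.18 without the array that stood apart). UNC45B, the muscle form of the myosin chaperone, rose by 4.82 to 6.41 in the comparisons at 48 h and at 96 h in growth media (the highest, at 48 h in growth media, was 8.81 without that array), while UNC45A, the general form, fell in all 4 later comparisons (log2 changes of -1.13 to -1.60). MYBPC3, the cardiac form, passed in none. With the other 28 arrays in the fit, 8 of the 11 rose at 96 h in DIFF media and 7 of the 9 sarcomeric heavy chains did, and 6 of the 9 rose at 48 h in growth media, while 1 of the 11 passed at 24 h.

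**Figure D4:**
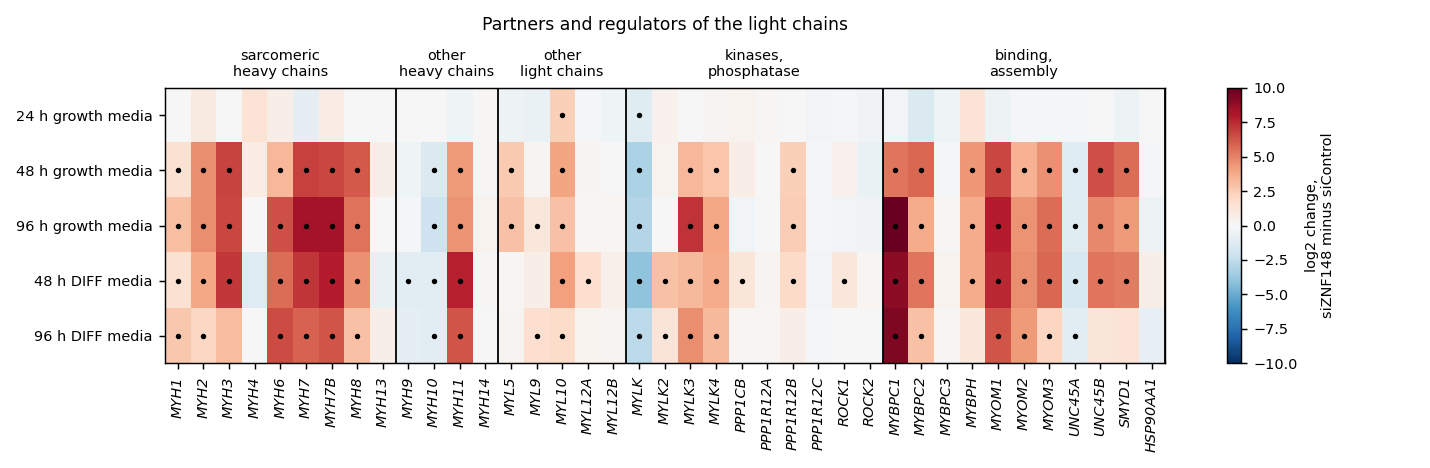
Change with siZNF148 (colour, log2, red higher and blue lower than siControl) of heavy chains, other light chains, kinase and phosphatase genes and binding or assembly factors, in columns, at each time and media, in rows; dots mark changes past 2-fold with an adjusted p under 0.05. The 24 h row holds 2 dots, MYL10 and MYLK, and the rows from 48 h on are red for most sarcomeric heavy chains and binding proteins, with MYLK and UNC45A blue.

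Markers of myoblasts and of other cell types were measured beside these results. Of the 6 myoblast markers 2 rose and none fell at 24 h, led by VCAM1 (1.36). In growth media 4 rose at 48 h and 3 at 96 h, and in DIFF media 2 rose at each time, all led by NCAM1 (up to 4.56). In each of these comparisons 1 fell, MYF5 in growth media (-1.63 and -1.80) and VCAM1 in DIFF media (-1.67 and -1.24). Of 5 fibroblast markers tested, all were well above background on every siZNF148 array and 4 on every siControl array from 48 h on, and their summed level lay at 15.93 to 17.23 in siControl and 14.10 to 14.80 in siZNF148 from 48 h on (log2 of the sum). Within that list THY1 fell (log2 changes of -2.67 to -4.76) and COL15A1 rose by 3.01 to 5.89. Of 6 cardiac markers tested, 3 or 4 rose from 48 h on, led by NPPA (up to 7.52) and MYH6, while GATA4 was well above background on all arrays of 1 group only and NKX2-5 had group means between 15.70 and 16.17, so that the summed level of the list, which it dominates, spanned 15.61 to 16.54 in all groups. Of 5 smooth muscle markers CNN1 fell at 24 h (-1.98), and 2 to 4 rose from 48 h on, with MYOCD as a fall at 48 h in growth media only without the control array that stood apart. Their summed level was 13.08 to 15.31 in siControl and 13.28 to 16.33 in siZNF148. Endothelial markers (4 tested) summed to 7.32 to 8.76 over all groups, and within that list PECAM1 fell at 48 h in DIFF media and at 96 h (log2 changes of -1.22, -2.05 in growth and -3.07 in DIFF media), TEK fell at 48 h in DIFF media (-4.22) and VWF rose at 96 h in DIFF media (1.19), while the only adipocyte marker tested, ADIPOQ, was at or near background. The part of any of these in the light chain changes was not tested.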

How the data were processed

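RNA from 29 cultures was hybridized to 1-colour Agilent arrays, which were scanned, and signal was extracted with Feature Extraction. The scanner headers give version 10.7.3.1, while the paper's methods state a different version. The authors deposited a table of log2 values, quantile-normalized from background-subtracted signal according to their methods, and scanner files with the processed signal intensity. The deposited log2 values were tested here, and quantile normalization of the deposited intensity gave values within 0.00133 of them (median absolute difference). The 38839 of 58201 probes that rose well above background on 2 or more arrays entered 1 limma fit (version 3.58.1) of the 10 group means over all 29 arrays, and a change was called where it passed 2-fold and its p, adjusted by Benjamini-Hochberg, was below 0.05. Genes were named through accessions, and the brightest tested probe stood for a gene. The fit was tested on simulated data. The genes, the lists of partners and the markers were chosen with earlier results of these data known, and all 8 light chains are named, with the largest rise and fall of each list and, per light chain, the 3 genes with the most similar group means; other list genes were named after their values were seen. Alternatives were the scanner values, other filters, tests, blocks and array weights, and leaving out each array. No depth applies to arrays; the number of arrays limits the precision.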

Additional observations from a re-analysis of the deposited data

Results flagged for a closer look

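The effect of siZNF148 differed between groups for 15 pairs of a light chain and a contrast, by the test of the difference itself (limma, adjusted over all probes). Between 48 h and 24 h in growth media the effect was larger at 48 h for MYL1 (6.17 ± 1.88, log2, SE; adjusted p = 0.0134), MYL2 (4.49 ± 0.818; 0.000166), MYL4 (7.10 ± 1.7; 0.0022), MYL6B (3.09 ± 0.513; 6.06e-05), MYL7 (1.64 ± 0.502; 0.0135) and MYLPF (5.43 ± 1.41; 0.00421). Between 96 h and 24 h in growth media it was larger at 96 h for MYL1 (6.39 ± 1.99; 0.015), MYL2 (6.84 ± 0.868; 2.01e-06), MYL3 (7.15 ± 1.66; 0.00158), MYL4 (7.90 ± 1.81; 0.0014), MYL6B (4.00 ± 0.544; 5.01e-06), MYL7 (2.14 ± 0.533; 0.00288) and MYLPF (5.24 ± 1.5; 0.00819). Both sets share the 24 h arrays, where MYL1 and MYL4 were above background on none of 6 arrays. MYL7 was above it on 1 of them, MYL3 and MYLPF on 1 array of each group, and MYL2 on 2 siControl arrays and 1 siZNF148 array. These are therefore fitted and not measured sizes. MYL7 did not pass as higher at 48 h (0.49) or at 96 h (0.99) in growth media. Its differences rest largely on the fitted 24 h change of -1.15, at background. The 48 h values include siControl replicate 1, which stood apart. Without it they were 9.01 ± 0.654 for MYL1, 5.62 ± 0.448 for MYL2, 9.59 ± 0.737 for MYL4, 3.89 ± 0.0882 for MYL6B, 1.63 ± 0.546 for MYL7 and 7.56 ± 0.486 for MYLPF, and MYL3 passed too (4.66 ± 1.58; adjusted p = 0.0247). At 96 h the effect was smaller in DIFF than in growth media for MYL2 (-3.03 ± 0.868, adjusted p = 0.0133) and MYL6B (-1.89 ± 0.544, adjusted p = 0.014). MYL6B in siZNF148 cells lay near the top of the scale in both media. Hours in growth and DIFF media may also count from different starts, and neither limit was tested.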

How the results depend on the processing

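Over settings other than leaving out 1 array, 1547 values of single light chains kept their direction and side of the threshold, 43 passed it newly, 21 lost it and 21 moved, and 172 counts stayed within 1.5 times of their main value while 32 did not. The rise of 6 light chains with siZNF148 at 48 h in growth media was 3 (MYL2, MYL3, MYL6B) when only the 6 arrays of the comparison were fitted, 3 by the methods' t test unadjusted and 0 adjusted. The fall of MYL7 at 24 h was 0 calls with the 75th percentile scale, normexp, only the arrays compared, and the t test unadjusted or adjusted. In siZNF148 cells, DIFF against growth media gave 1 call at 48 h with normexp, and at 96 h 1 call each with normexp, only the arrays compared, and the t test unadjusted and adjusted. From 48 h to 96 h siZNF148 cells had, in growth media, 2 calls with normexp and 1 each with only the arrays compared, array weights, the t test (both ways) and the other 28 arrays, and in DIFF media 2 with normexp, 2 with only the arrays compared, 2 and 1 by the t test, and 1 each with array weights and the other 28 arrays. In siControl, DIFF against growth media at 48 h gave 1 call (MYLPF) with array weights. The difference between media of the siZNF148 effect gave 1 call at 48 h with normexp. At 96 h it gave 1 with the 75th percentile scale, 1 with the replicate block, and 4 each with normexp, array weights and the other 28 arrays.

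By the numbers in the sample titles (descriptions number the siZNF148 48 h growth media arrays otherwise), same-numbered cultures did not deviate together (correlations from -0.16 to 0.123 over 36 pairs), so the numbers were not taken to pair them; the replicate block left MYL2 as the 1 difference between media at 96 h, in place of 2, and moved no other count by over 1.5 times. The slide as a random block moved none. Leaving out in turn 1 array of the comparison's own groups gave, for siZNF148 against siControl, 0 to 1 calls at 24 h, 6 to 6 and 6 to 7 at 48 h and 96 h in growth media, and 6 to 6 and 4 to 4 in DIFF media. For DIFF against growth media it gave 0 to 3 and 1 to 4 in siControl and 0 to 0 at both times in siZNF148. For 96 h against 48 h it gave 0 to 3 and 3 to 4 in siControl and 0 to 0 and 0 to 1 in siZNF148, in growth and DIFF media. The differences of the effect ran from 5 to 7 (48 h minus 24 h), 6 to 7 (96 h minus 24 h), 0 to 3 (media, 48 h) and 1 to 2 (media, 96 h). Leaving siControl replicate 1 at 48 h out of the fit of comparisons that do not use it gave 6 calls for siZNF148 at 96 h in DIFF media, 5 for DIFF against growth media in siControl at 96 h and 5 for time in siControl DIFF media. All of these were rises, beside 10.6%, 7.26% and 6.12% of all genes in the same order. Without that array 4 values turned sign and passed the threshold; MYL2 and MYL6B (between media and between times in siControl) and MYL1 and MYL6B (media difference at 48 h) turned sign without a call. Over the arrays left out in turn, MYL1 between media in siControl at 48 h ran from -2.39 to 1.89 and MYL4 from -1.29 to 2.45, MYL4 between times in siControl growth media ran from -1.44 to 2.31, and the media difference of the effect at 48 h ran from -2.09 to 1.66 for MYL4. The cause was not tested. Below the lowest signal called well above background, at 3.15 to 5.16 (log2) depending on the array, levels and their order are uncertain, which affects MYL3, MYL7 and the 24 h values.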
